A study of Mus musculus with 4 samples.

Results

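The genes described are 34 genes of sterol and fatty acid synthesis and of its control, named in advance as a list and read by symbol in all 4 libraries of a mouse femur single-cell RNA experiment that measured 32285 gene features. The list holds 18 enzymes of the sterol branch (7 mevalonate steps and 11 steps from squalene to cholesterol), 5 regulators, 1 intracellular sterol carrier, 8 enzymes of the fatty acid branch and 2 efflux transporters. All 34 symbols were found in all 4 libraries. No measured value entered the choice of the genes, although the list was drawn up with earlier results of these libraries known.

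All 4 libraries came from Rag2-/-gammac-/- mice on a C57BL/6 background, which lack their own B, T and NK lymphocytes. The Ctrl library came from ungrafted mice. The Sham_D40 library came from mice given PBS and taken on day 40, and the Graft_D19 and Graft_D40 libraries came from mice whose femurs received DOHH2 cells and were taken on day 19 or day 40. DOHH2 is a human follicular lymphoma cell line, so the grafts represent 1 tumour. Marrow and bone fragments were digested at 37°C, and stromal cells (Cd45 and Ter119 negative, Cd31 negative, Cd51 and Cd200 positive), endothelial cells (Cd31 and Sca1 positive) and human CD20+ cells were sorted for 10x 3' libraries. There was 1 library per group, the number and age of the mice behind each are not given in the sources used here, and no comparison below has a replicate check. Every interval is a 95% interval that covers counting error only, which leaves out differences between mice, digestions and libraries.

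Cholesterol is built from acetyl-CoA. The mevalonate steps make isoprenoid units, farnesyl diphosphate is joined to squalene, and squalene is closed to lanosterol and trimmed to cholesterol in the endoplasmic reticulum. SREBP-2, the product of Srebf2, and SREBP-1, the product of Srebf1, are membrane-bound transcription factors that Scap carries to the Golgi for cleavage when sterol is low, and Insig1 and Insig2 hold Scap back when sterol is high. SREBP-2 acts mainly on sterol genes and SREBP-1c mainly on fatty acid genes, often beside the factor NF-Y, while oxysterol-activated LXR receptors induce the efflux pumps Abca1 and Abcg1. In marrow, cells that carry the leptin receptor (LepR) and secrete Cxcl12 and Kit ligand form the main perivascular stroma and are related to marrow adipocytes.

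The upstream sequences of the synthesis genes are shown to look for sterol regulatory elements and NF-Y boxes, motifs of the factors named above. Whether these factors acted in the cells was not tested. RefSeq promoter windows on GRCm38.p6 (the assembly also called mm10) were matched for 26 of the 34 members, as 34 windows of the 250 bases before an annotated start. Fdps, Fdft1, Sqle, Stard4, Scd1, Scd2, Fads1 and Abcg1 had no match. The 7 windows below belong to the enzymes that were called higher in LepR-marker stroma in both graft comparisons and that had a single RefSeq window. Each is written 5′ to 3′ on the strand of its gene, and capitals mark the CCAAT box of NF-Y on either strand (CCAAT or ATTGG) and, in Hmgcs1, the match to TCACNCCAC, the core of a sterol regulatory element. They are Hmgcs1 at chr13:119690101-119690350 on the plus strand, Idi1 at chr13:8885356-8885605 on the plus strand, Lss at chr10:76531355-76531604 on the plus strand, Cyp51 at chr5:4104698-4104947 on the minus strand, Msmo1 at chr8:64733579-64733828 on the minus strand, Fasn at chr11:120824548-120824797 on the minus strand, and Fads2 at chr19:10101504-10101753 on the minus strand.
Hmgcs1: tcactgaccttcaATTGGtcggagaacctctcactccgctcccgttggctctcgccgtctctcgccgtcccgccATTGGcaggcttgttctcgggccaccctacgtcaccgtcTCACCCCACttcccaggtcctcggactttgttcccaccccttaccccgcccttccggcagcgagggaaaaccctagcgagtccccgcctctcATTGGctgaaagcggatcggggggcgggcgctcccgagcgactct
Idi1: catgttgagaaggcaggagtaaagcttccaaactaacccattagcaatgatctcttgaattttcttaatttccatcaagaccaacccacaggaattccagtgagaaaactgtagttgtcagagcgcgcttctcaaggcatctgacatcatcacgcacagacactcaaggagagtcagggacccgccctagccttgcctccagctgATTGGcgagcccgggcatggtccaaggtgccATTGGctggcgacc
Lss: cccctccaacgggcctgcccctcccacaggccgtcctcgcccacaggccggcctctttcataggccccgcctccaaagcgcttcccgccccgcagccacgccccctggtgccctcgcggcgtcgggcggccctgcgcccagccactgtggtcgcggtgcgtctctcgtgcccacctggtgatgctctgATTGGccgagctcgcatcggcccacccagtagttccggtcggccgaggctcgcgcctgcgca
Cyp51: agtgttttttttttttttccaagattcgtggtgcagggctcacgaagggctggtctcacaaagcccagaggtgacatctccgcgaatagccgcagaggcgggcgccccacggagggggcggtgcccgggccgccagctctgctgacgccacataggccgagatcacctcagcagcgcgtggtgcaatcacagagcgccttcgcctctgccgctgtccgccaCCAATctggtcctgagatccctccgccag
Msmo1: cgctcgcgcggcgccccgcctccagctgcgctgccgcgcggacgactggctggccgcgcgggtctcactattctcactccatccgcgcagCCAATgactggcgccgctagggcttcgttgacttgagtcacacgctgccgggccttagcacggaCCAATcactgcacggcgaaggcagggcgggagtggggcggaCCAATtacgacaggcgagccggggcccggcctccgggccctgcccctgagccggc
Fasn: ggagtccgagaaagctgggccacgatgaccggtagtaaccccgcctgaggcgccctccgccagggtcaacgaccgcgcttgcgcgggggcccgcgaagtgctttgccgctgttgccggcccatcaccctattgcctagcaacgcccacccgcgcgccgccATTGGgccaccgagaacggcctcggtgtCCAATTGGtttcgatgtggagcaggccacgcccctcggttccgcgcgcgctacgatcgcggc
Fads2: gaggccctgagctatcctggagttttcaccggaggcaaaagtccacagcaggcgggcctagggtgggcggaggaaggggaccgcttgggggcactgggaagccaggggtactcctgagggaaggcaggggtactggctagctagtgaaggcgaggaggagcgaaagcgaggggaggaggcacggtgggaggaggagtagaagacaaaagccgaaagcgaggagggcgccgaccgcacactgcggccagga

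The CCAAT box, searched as CCAAT on both strands, lay in the windows of 19 of the 26 matched members, against 37.5% of the 27025 genes with a window. In the sterol branch 14 of 15 matched members held it, the exception being Acat2, and in the fatty acid branch 1 of 5 did, Fasn. A member counted if any of its windows held the box. By window it lay in 14 of 18 sterol windows (77.8%), against 33.8% of all windows. In Dhcr7 it lay only in the window at 143829964-143830213, and not in those nearer the gene start at 143823145. TCACNCCAC on both strands matched 1 of the 26 members, Hmgcs1, where it began 137 bases before the start, and it lay in 1.22% of genes with a window. The E-box CANNTG, which SREBP-1 can also bind, lay in 16 of the 26, against 69.3% of genes, and it can overlap a CCAAT box, as it does in Fasn. A match is a description of letters in a short window and not of a bound site.

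The 4 libraries held 5537 (Ctrl), 5750 (Sham_D40), 7668 (Graft_D19) and 6674 (Graft_D40) barcodes, and 4074, 4527, 4813 and 4867 cells were kept. Gene UMIs totalled 18533482, 51744386, 63214301 and 72204599, so the Ctrl library was the shallowest. Between 11 and 15 barcodes were shared by any pair of libraries. UMIs were summed per library and class and scaled to the class total as CPM. Where 4 values follow each other without names, they are those of Ctrl, Sham_D40, Graft_D19 and Graft_D40, in that order, and day 40 and day 19 stand for Graft_D40 over Sham_D40 and Graft_D19 over Ctrl. A member was taken as measured where its mean over the 4 libraries was at least 5 CPM, and it was called higher or lower where the CPM differed at least 1.5-fold with an interval off 1. Only 1 of the 34 members was among the 2000 variable genes behind the clusters.

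The largest stromal class joined clusters 2, 3, 4, 8 and 14, which passed a gate on LepR stroma markers (Lepr, Cxcl12, Kitl, Adipoq and 8 others) and held 1766 (Ctrl), 2035 (Sham_D40), 1832 (Graft_D19) and 1459 (Graft_D40) cells. It is called LepR-marker stroma here. Different clusters held most of it in different libraries. Cluster 2 held 1242 of the Ctrl cells and at most 13 in any other library, cluster 4 held 1367 of the Sham_D40 cells, and cluster 8 held 640 and 1200 cells of Graft_D19 and Graft_D40 against 27 and 30 of Ctrl and Sham_D40. None of the LepR markers was among the 10 leading genes of cluster 8, and 1 fibroblast marker, Fbn1, was. The class is therefore given whole and again over clusters 3, 4 and 14, which each had at least 50 cells in every library. The make-up of this smaller pool also differed. Cluster 14 gave 351045 of its 1678135 UMIs in Ctrl and 3695035 of 18301951 in Sham_D40. It gave 2957207 of 9124493 in Graft_D19 and 814757 of 1752744 in Graft_D40. What this adds to the pooled ratios was not tested.

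In LepR-marker stroma the summed sterol branch was higher in both grafted libraries than in both ungrafted ones, and 9 of the 16 measured enzymes were called higher in each such comparison. In Graft_D40 over Sham_D40, 9 of the 16 measured sterol members were called higher and 0 lower, where 7.68% of the 10543 measured features were called higher and 4.83% lower. Of these 9, Fdft1, Sqle, Lss and Dhcr7 passed the 5 CPM minimum only through the grafted libraries. A call of higher was thus built into their passing it. Of the 12 sterol members that reached 5 CPM over the ungrafted libraries alone, 5 were called higher, against 6.68% of such features. The median log2 ratio of all 16, with those members included, was 0.92, against 0.07 over all measured features. On day 19, in Graft_D19 over Ctrl, 10 of 16 were called higher and 0 lower, against 29.9% and 8.01% of features, and the median was 1.38 against 0.29. The same 4 members were among the 10. Of the 12 that reached 5 CPM over the ungrafted libraries alone, 6 were called higher, against 28.9% of such features. The 18 sterol members together gave 306 CPM (Ctrl), 274 (Sham_D40), 568 (Graft_D19) and 537 (Graft_D40), a ratio of 1.96 (1.89 to 2.03) on day 40 and of 1.86 (1.77 to 1.95) on day 19. The background of Graft_D19 over Ctrl was high, and the class held 6942679 UMIs in Ctrl against 14365126 in Graft_D19.

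**Figure D1:**
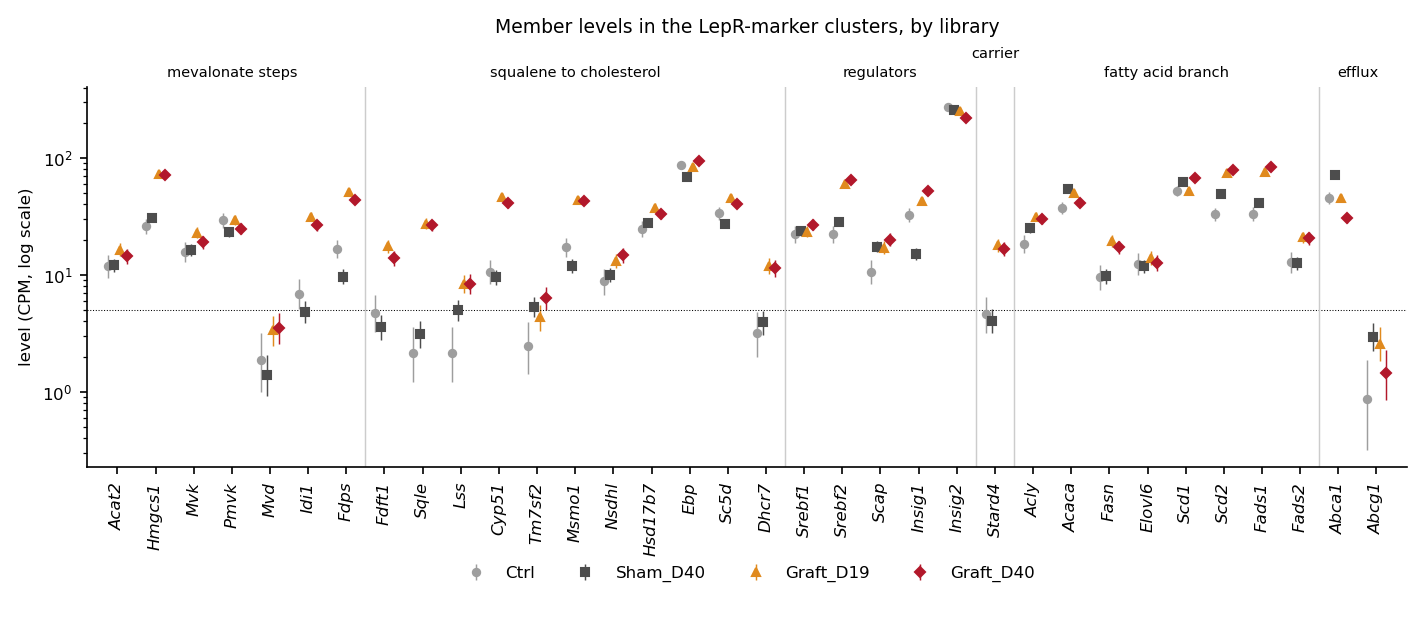
Level of the sterol and fatty acid genes in LepR-marker stroma (clusters 2, 3, 4, 8 and 14) in each of the 4 libraries, in CPM, with 95% exact Poisson intervals. Sqle, Idi1, Fdps, Cyp51 and Msmo1 are above both ungrafted libraries in both grafted ones, while Ebp and Insig2 are at about the same level in all 4.

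Among the mevalonate steps, 3 of the 6 measured members stood out. Hmgcs1 (ENSMUSG00000093930, chr13:119690379-119708260, plus strand), which makes HMG-CoA and carries the printed TCACNCCAC match, had 26.2 CPM (Ctrl), 30.9 (Sham_D40), 73.5 (Graft_D19) and 72.0 (Graft_D40). Its ratio was 2.33 (2.10 to 2.59) for Graft_D40 over Sham_D40 and 2.80 (2.39 to 3.30) for Graft_D19 over Ctrl. Both grafted libraries were far above both ungrafted ones, which lay close together. Idi1 (ENSMUSG00000058258, chr13:8885501-8892451, plus strand), which interconverts the isoprenoid units, had 6.91, 4.84, 31.5 and 26.6 CPM in the same order. Its ratios were 5.51 (4.35 to 7.03) on day 40 and 4.56 (3.38 to 6.28) on day 19, with the ungrafted libraries again apart from the grafted. Fdps (chr3:89093588-89101959, minus strand), the farnesyl diphosphate synthase, had 16.7, 9.68, 51.2 and 43.8 CPM. The grafted libraries were higher by 4.53 (3.82 to 5.39) and 3.06 (2.51 to 3.76), and the ungrafted libraries also differed, Sham_D40 being at 0.579 of Ctrl.

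The other mevalonate steps did not separate by graft. Acat2, an acetoacetyl-CoA thiolase, had 11.8, 12.1, 16.4 and 14.5 CPM. Mvk, which phosphorylates mevalonate, had 15.7, 16.3, 23.0 and 18.9. Pmvk, the next kinase, had 29.2, 23.1, 29.7 and 24.9, so that none of these 3 met the 1.5-fold call in either comparison. Mvd, the decarboxylase, was under the 5 CPM minimum, at 1.87, 1.40, 3.34 and 3.53 CPM.

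Among the 11 steps from squalene to cholesterol, 10 were measured, and the early ones and Dhcr7 differed most. Sqle (ENSMUSG00000022351, chr15:59315077-59331192, plus strand), squalene epoxidase and a rate-limiting step, had 2.16 CPM (Ctrl, 15 UMIs), 3.12 (Sham_D40, 58 UMIs), 27.5 (Graft_D19, 395 UMIs) and 26.5 (Graft_D40, 330 UMIs). Its ratio of 8.49 (6.41 to 11.4) on day 40 and of 12.7 (7.62 to 23.0) on day 19 was the largest of the sterol branch in both comparisons. Fdft1, squalene synthase, had 4.75, 3.55, 17.6 and 13.9 CPM, with ratios of 3.91 (2.93 to 5.28) and 3.71 (2.57 to 5.50). In both genes the ungrafted libraries were under 5 CPM and the grafted ones were not. Lss, which closes lanosterol, had 2.16, 5.00, 8.42 and 8.34 CPM, with ratios of 1.67 (1.25 to 2.23) and 3.90 (2.27 to 7.18). Lss was the sterol enzyme called higher in Sham_D40 than in Ctrl too, at 2.31-fold.

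The lanosterol demethylases followed the same order of libraries. Cyp51 (chr5:4081145-4104746, minus strand), which removes the first methyl group of lanosterol, had 10.7, 9.51, 46.1 and 40.9 CPM and ratios of 4.30 (3.62 to 5.13) and 4.32 (3.40 to 5.58). Msmo1 (chr8:64718139-64733792, minus strand), the methylsterol monooxygenase, had 17.3, 11.9, 44.1 and 43.0 CPM and ratios of 3.60 (3.08 to 4.23) and 2.55 (2.09 to 3.13). Dhcr7, the last reductase of one of the routes to cholesterol, had 3.17, 3.92, 12.0 and 11.5 CPM and ratios of 2.92 (2.19 to 3.93) and 3.78 (2.42 to 6.19). All 3 genes were called higher against both ungrafted libraries at once, where 5.8% (Graft_D40) and 2.11% (Graft_D19) of features were. Dhcr7 passed the 5 CPM minimum only through the grafted libraries, so its call was built into its passing. In all 3 genes the ungrafted libraries were within 1.5-fold of each other.

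Later steps differed less. Hsd17b7, a sterol ketoreductase, had 24.8, 28.0, 37.5 and 33.3 CPM and was called in Graft_D19 over Ctrl only, at 1.51 (1.27 to 1.81), close to the 1.5-fold limit. Nsdhl, the decarboxylating dehydrogenase, had 8.79, 10.0, 13.2 and 14.7 CPM, and its day 40 ratio of 1.47 was not called, nor was day 19. Sc5d, the C5 desaturase, had 33.7, 27.4, 45.6 and 40.4 CPM, just under the limit on day 40 at 1.48. Ebp, the sterol isomerase, had 87.1, 68.4, 83.2 and 94.3 CPM, with Ctrl between the grafted libraries. Tm7sf2, a C14 reductase, was under the minimum, at 2.45, 5.32, 4.32 and 6.34 CPM.

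**Figure D2:**
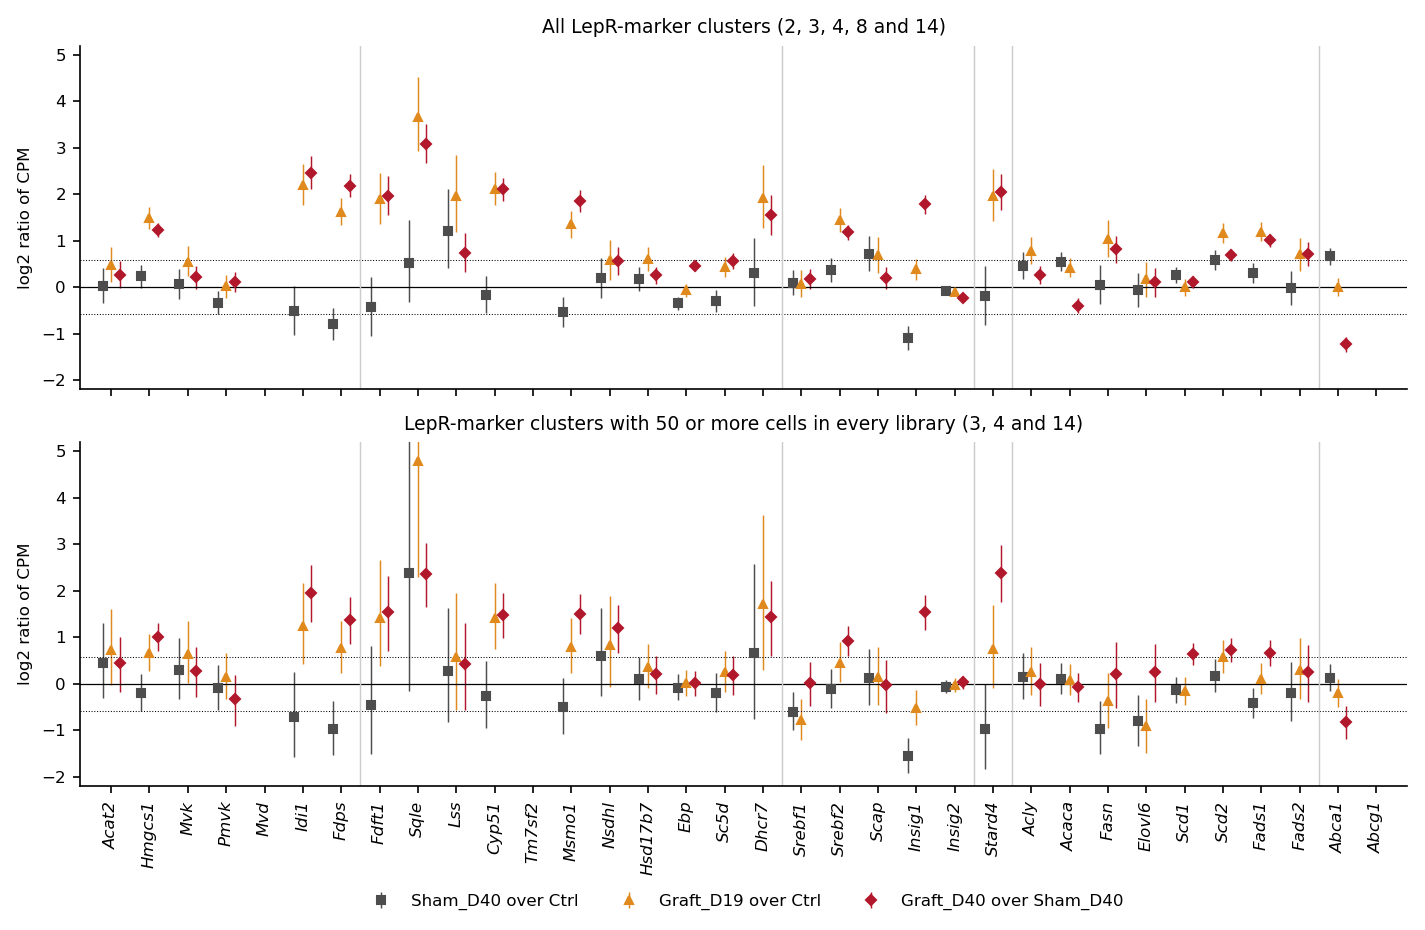
Log2 ratio of each measured member for Sham_D40 over Ctrl, Graft_D19 over Ctrl and Graft_D40 over Sham_D40, with 95% counting intervals and no pseudocount. The upper panel covers all LepR-marker clusters and the lower panel clusters 3, 4 and 14. Dotted lines mark 1.5-fold and the axis stops short of the upper end of Sqle intervals in the lower panel. Sqle has the highest sterol ratio in both graft comparisons of the upper panel. The fatty acid ratios of Graft_D19 over Ctrl lie nearer to 0 in the lower panel.

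The regulators did not move as a group. Srebf2 (chr15:82147181-82205379, plus strand), which encodes SREBP-2 and is itself one of its targets, had 22.2 CPM (Ctrl), 28.6 (Sham_D40), 60.0 (Graft_D19) and 64.7 (Graft_D40), with ratios of 2.26 (2.02 to 2.53) on day 40 and 2.71 (2.28 to 3.23) on day 19. Srebf1, which encodes both SREBP-1 forms, had 22.2, 23.8, 23.4 and 26.9 CPM and was called in neither comparison. The grafted libraries were thus clear of the ungrafted ones for Srebf2, and all 4 libraries were near one another for Srebf1. Scap, the sterol sensor and escort, had 10.7, 17.5, 17.1 and 20.1 CPM. Its call in Graft_D19 over Ctrl, 1.61 (1.23 to 2.11), was matched by Sham_D40 over Ctrl, 1.64, and Graft_D19 was slightly below Sham_D40. Insig1, the retention protein that SREBP itself induces, had 32.6, 15.2, 42.5 and 52.2 CPM. It was called in Graft_D40 over Sham_D40 at 3.45 (2.99 to 3.98) and not in Graft_D19 over Ctrl at 1.31, and Sham_D40 was at 0.466 of Ctrl. Insig2, the second retention protein, had 275, 258, 254 and 220 CPM and met no call.

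Stard4, a soluble carrier that moves cholesterol between membranes, went with the enzymes. It had 4.61 CPM (Ctrl), 4.03 (Sham_D40), 17.9 (Graft_D19) and 16.6 (Graft_D40). Its ratios were 4.12 (3.15 to 5.44) on day 40 and 3.88 (2.68 to 5.79) on day 19, and the ungrafted libraries were alike.

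In the fatty acid branch Fasn, Scd2, Fads1 and Fads2 were called higher in both graft comparisons. All 8 members were measured, of which 4 were called higher in Graft_D40 over Sham_D40, where 7.68% of features were, and 5 in Graft_D19 over Ctrl, where 29.9% were, with 0 lower in both. The branch summed to 209 CPM (Ctrl), 267 (Sham_D40), 338 (Graft_D19) and 352 (Graft_D40), a ratio of 1.32 (1.26 to 1.37) on day 40 and of 1.62 (1.52 to 1.72) on day 19. Its median log2 ratios were 0.46 and 0.71, against 0.07 and 0.29 over all measured features.

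Fasn (chr11:120805846-120824547, minus strand), which assembles palmitate and was the fatty acid gene with CCAAT boxes in its printed window, had 9.51, 9.78, 19.6 and 17.2 CPM, with ratios of 1.76 (1.43 to 2.15) and 2.07 (1.57 to 2.74). Fads1, the delta-5 desaturase, had 33.3, 41.2, 76.1 and 83.0 CPM, with ratios of 2.01 (1.83 to 2.21) and 2.29 (1.98 to 2.65). Fads2, the delta-6 desaturase, had 12.8, 12.6, 20.9 and 20.5 CPM, with 1.63 in both comparisons (1.36 to 1.96 and 1.28 to 2.09). In these 3 genes the grafted libraries lay above both ungrafted ones, by less than in Idi1 or Sqle. Scd2, a stearoyl-CoA desaturase, had 33.0, 49.5, 73.8 and 79.6 CPM. It was called in both comparisons, at 1.61 (1.47 to 1.76) and 2.24 (1.94 to 2.59), and, just at the limit, in Sham_D40 over Ctrl.

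Of the remaining fatty acid enzymes 1 was called, on day 19. Acly, which supplies cytosolic acetyl-CoA, had 18.3, 25.2, 31.5 and 30.2 CPM and was called in Graft_D19 over Ctrl only, at 1.72 (1.41 to 2.11). Acaca, acetyl-CoA carboxylase, had 37.3, 54.4, 49.8 and 41.3 CPM, with Sham_D40 the highest. Elovl6, an elongase, had 12.4, 11.8, 13.9 and 12.7 CPM, and Scd1, the other stearoyl-CoA desaturase, had 52.4, 62.5, 52.4 and 67.2. These last 3 met no call in either graft comparison.

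The efflux pump Abca1 (chr4:53030787-53159895, minus strand), which hands cholesterol to apolipoprotein A-I, was the member called lower. It had 45.4 CPM (Ctrl), 71.9 (Sham_D40), 45.5 (Graft_D19) and 30.6 (Graft_D40), and its ratio was 0.426 (0.380 to 0.478) on day 40, with no call on day 19. Sham_D40 was the highest library and 1.58-fold above Ctrl, Graft_D19 and Ctrl were level and Graft_D40 was lowest. Abcg1, a partner pump, was under the minimum, at 0.864, 2.96, 2.58 and 1.44 CPM.

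Across all 34 members, 31 were measured in LepR-marker stroma, and 16 were called higher and 1 lower in Graft_D40 over Sham_D40, against 7.68% and 4.83% of features. In Graft_D19 over Ctrl 18 were higher and 0 lower, against 29.9% and 8.01%. Against both ungrafted libraries at once, 16 members were called higher in Graft_D40, where 5.8% of features were, and 14 in Graft_D19, where 2.11% were. The sterol enzymes among them were the same 9 at both times: Hmgcs1, Idi1, Fdps, Fdft1, Sqle, Lss, Cyp51, Msmo1 and Dhcr7. Between the ungrafted libraries (Sham_D40 over Ctrl), Lss, Scap, Scd2 and Abca1 were called higher and Fdps and Insig1 lower, against 26.9% and 10.2% of features. No member was called between Graft_D40 and Graft_D19, where 3.29% and 2.63% of features were called higher and lower, and the sterol sum differed by 0.95 (0.92 to 0.98).

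Fdft1, Sqle, Lss, Dhcr7 and Stard4 passed the 5 CPM minimum only through their grafted libraries, so a call of higher was built into their passing it. With no minimum, 10 of all 18 sterol members were called higher in Graft_D40 over Sham_D40 and 11 in Graft_D19 over Ctrl. The share of all features called with no minimum is not given here, so these counts cannot be set against a background. Of the 12 sterol members that reached 5 CPM over the ungrafted libraries alone, 5 were called higher in Graft_D40 over Sham_D40, where 6.68% of such features were. On day 19, 6 of the 12 were, against 28.9%.

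The sterol sums of the clusters found in every library differed by less than those of the whole class. Over clusters 3, 4 and 14, with 497 cells (Ctrl), 1996 (Sham_D40), 1179 (Graft_D19) and 258 (Graft_D40), the sterol branch summed to 287, 273, 433 and 426 CPM. The ratios were 1.56 (1.44 to 1.68) on day 40 and 1.51 (1.37 to 1.66) on day 19. In Graft_D40 over Sham_D40, 9 sterol members were called higher and 0 lower, against 5.42% and 3.16% of features. They were Hmgcs1, Idi1, Fdps, Fdft1, Sqle, Cyp51, Msmo1, Nsdhl and Dhcr7. On day 19, 9 were called higher and 0 lower, against 9.25% and 4.89%, with Mvk in place of Nsdhl. Fdft1, Sqle, Lss and Dhcr7 passed the minimum only through the grafted libraries here too. Of the 12 sterol members that reached 5 CPM over the ungrafted libraries alone, 6 were called higher on each day, where 4.85% (day 40) and 8.9% (day 19) of such features were. The medians of all measured sterol members were 1.06 on day 40 and 0.71 on day 19, against 0.06 and 0.12 over all measured features. They include Fdft1, Sqle, Lss and Dhcr7, whose higher ratios were built into their passing the minimum.

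In clusters 3, 4 and 14, Hmgcs1 had 35.2 CPM (Ctrl), 30.8 (Sham_D40), 55.6 (Graft_D19) and 62.2 (Graft_D40). Idi1 had 7.75, 4.70, 18.3 and 18.3. Sqle had 0.596 (1 UMI), 3.11, 16.5 and 16.0, and its ratio was 5.13 (3.14 to 8.20) on day 40 and 27.8 (4.91 to 1104) on day 19, the latter resting on that 1 UMI. Both grafted libraries stayed above both ungrafted ones in these 3 genes. Cyp51 had 11.3, 9.40, 30.2 and 26.2 CPM, and Msmo1 had 16.7, 11.8, 29.0 and 33.7. Srebf2, Insig1 and Stard4 were called higher on day 40 and not on day 19, and Abca1 was lower on day 40 at 0.562 (0.437 to 0.714). Srebf1 was called lower in Graft_D19 over Ctrl, at 0.582 (0.434 to 0.792).

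The fatty acid difference on day 19 did not hold in those clusters. The branch summed to 294 CPM (Ctrl), 266 (Sham_D40), 310 (Graft_D19) and 362 (Graft_D40). In Graft_D19 over Ctrl 0 of 8 members were called higher and Elovl6 was called lower, at 0.531 (0.358 to 0.803), and the ratio of the sums was 1.05 (0.96 to 1.16). In Graft_D40 over Sham_D40 the branch stood at 1.36, with Scd1, Scd2 and Fads1 called higher. Between the ungrafted libraries, Fdps, Srebf1, Insig1, Stard4, Fasn and Elovl6 were lower in Sham_D40 than in Ctrl and 0 members were higher, against 5.09% and 8.34% of features.

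Cluster by cluster, the sterol sum was not raised everywhere. In cluster 14 it was 256 CPM (Ctrl), 269 (Sham_D40), 549 (Graft_D19) and 469 (Graft_D40), and both grafted libraries were well above both ungrafted ones. In cluster 4 it was 278, 277, 390 and 371, with the same order and a smaller step. In cluster 3 it was 343, 254, 325 and 506, so that Graft_D19 lay below Ctrl, at 0.95 (0.77 to 1.17), and only Graft_D40, with 55 cells, lay above both. In cluster 8 it was 617 in Ctrl and 365 in Sham_D40, each from no more than 30 cells, against 805 in Graft_D19 and 556 in Graft_D40. In cluster 2, nearly all of it Ctrl, it was 308 CPM.

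**Figure D3:**
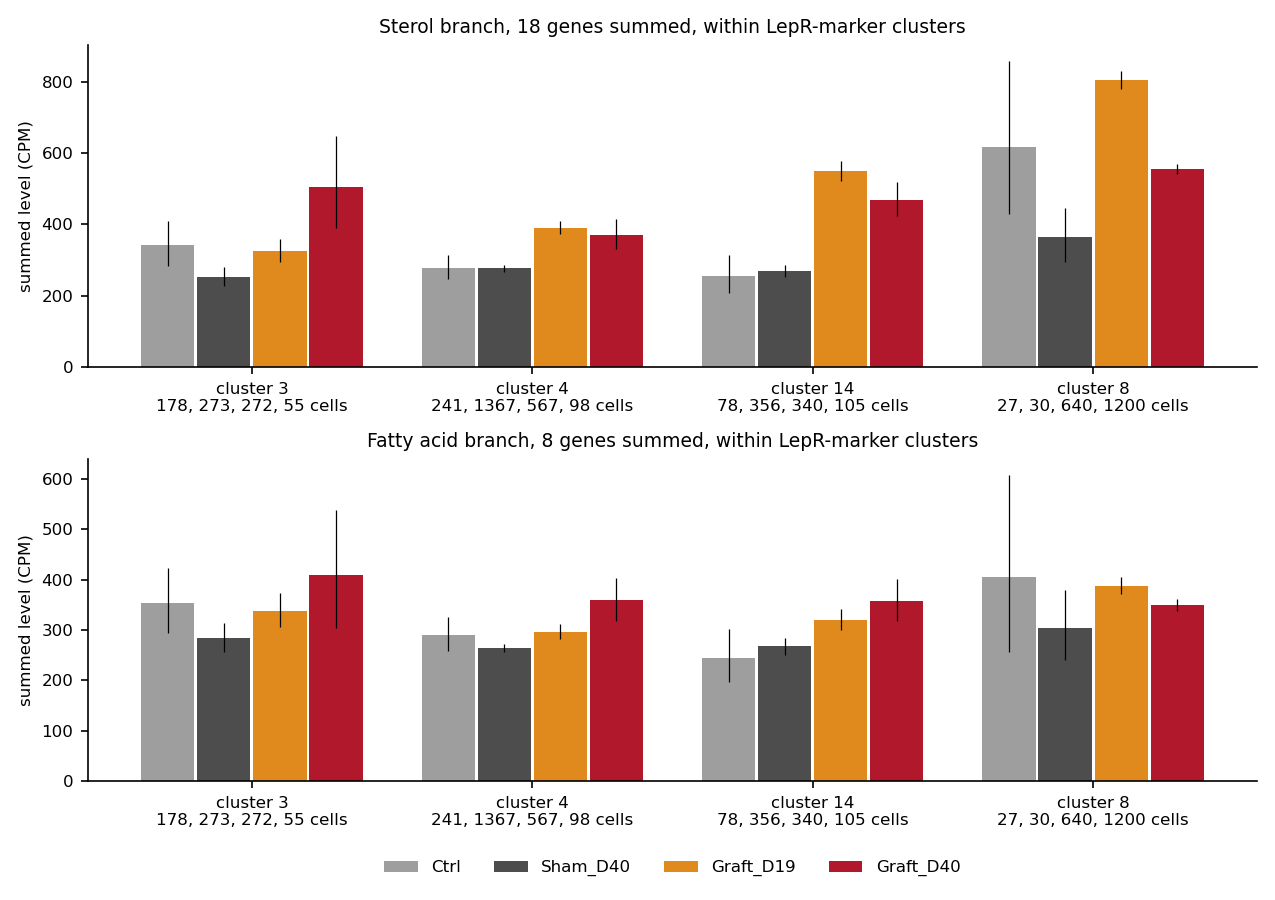
Summed CPM of the sterol branch and of the fatty acid branch in LepR-marker clusters 3, 4, 14 and 8 by library, with 95% exact Poisson intervals and the number of cells at each bar. Cluster 14 has the clearest step between ungrafted and grafted libraries in the sterol branch, while in cluster 3 the Graft_D19 bar is below the Ctrl bar.

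Within cluster 8, which held 1200 of the 1459 Graft_D40 cells and 640 of the 1832 Graft_D19 cells, 7 sterol genes were lower on day 40 than on day 19. Idi1, Fdps, Fdft1, Sqle, Cyp51, Msmo1 and Dhcr7 were called lower in Graft_D40 over Graft_D19, against 1.85% of features, and the sterol sum was at 0.69. Against its 30 Sham_D40 cells, Graft_D40 had Hmgcs1, Sqle and Sc5d called higher, against 4.42% of features. With cluster 8 left out, 9 sterol members were called higher in Graft_D40 over Sham_D40 (425 against 273 CPM, background 5.4%). On day 19, 9 were called as well (434 against 303 CPM, background 28.1%).

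The difference was also present as a share of cells. After each cell was thinned to 1000 UMIs, which left out no cell, at least 1 sterol UMI was found in 24.5% of LepR-marker cells (Ctrl), 21.7% (Sham_D40), 35.6% (Graft_D19) and 36.1% (Graft_D40). Unthinned, the shares were 61.7%, 81.7%, 85.6% and 85.8% at median depths of 3784.5, 8773, 7359.5 and 7975 UMIs, so that Ctrl was the lowest only before thinning. In clusters 3, 4 and 14 the thinned shares were 22.5%, 21.7%, 30.6% and 33.3%. No class in these libraries is known to lack sterol genes. In endothelium the thinned shares were 17.4%, 16.3%, 22.4% and 19.9%, and unthinned 50.4%, 69.4%, 77.5% and 74.4% at median depths of 3424, 6986, 8412 and 7261 UMIs. The 10 cells richest in sterol UMIs held 3.96%, 2.68%, 5.66% and 6.43% of them in LepR-marker stroma. In clusters 3, 4 and 14 of Graft_D40 they held 25.8%.

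Marker lists also differed between the libraries in LepR-marker stroma, not all of them by graft. The 12 LepR markers summed to 56921 CPM (Ctrl), 61092 (Sham_D40), 47750 (Graft_D19) and 32933 (Graft_D40), with 0 of them at 0 in any library. The 16 chondrocyte markers summed to 177, 425, 560 and 781 CPM, the 10 immediate early genes to 1256, 2623, 4016 and 2686, and the 10 erythroid markers to 898, 256, 119 and 21.5. The cycling list of 10 genes was at 10.7, 10.4, 11.4 and 21.7 CPM, and the B cell list of 7 genes at 0.14, 0.11, 0.21 and 0.56, with 3 to 6 of its genes at 0. Their part in the result was not tested. A separate B-cell-marker cluster, left out of every class, held 15 (Ctrl), 0 (Sham_D40), 66 (Graft_D19) and 223 (Graft_D40) cells. Its leading genes included Gm10260, Rpl10l, Rpl9-ps6, Rpl36a-ps1 and Ms4a1. The mice lack B lymphocytes and human CD20+ cells were sorted, while the counts were made with mm10. Whether its reads are human was not tested, and its values are not taken as mouse levels. In its Graft_D40 cells the sterol branch summed to 231 CPM. Cyp51 had 102 CPM there, Fdft1 45.1, Hmgcs1 30.3, Acat2 16.9 and Idi1 10.5, and each of the other 13 sterol members had less than Idi1, down to Dhcr7 at 0. Chondrocyte-like cells, whose sterol levels were high in every library, are described below.

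The pool of endothelial-marker clusters, 5, 7, 10, 11, 12 and 13, called endothelium here, held 1505 (Ctrl), 1267 (Sham_D40), 1337 (Graft_D19) and 1282 (Graft_D40) cells, and several sterol genes were modestly higher there on day 40 in the pooled sum, though not in each cluster. In Graft_D40 over Sham_D40, 5 of 12 measured sterol members were called higher (Mvk, Idi1, Fdps, Fdft1 and Nsdhl) and 0 lower, against 7.14% and 7.35% of the 10315 measured features. The sterol sum was 207 CPM (Ctrl), 202 (Sham_D40), 236 (Graft_D19) and 269 (Graft_D40), a ratio of 1.33 (1.26 to 1.41) on day 40 and of 1.14 on day 19. In Graft_D19 over Ctrl, Hmgcs1 and Cyp51 were called higher and Sc5d lower, against 19.5% and 7.32% of features.

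Idi1 had 7.74 CPM (Ctrl), 7.67 (Sham_D40), 11.0 (Graft_D19) and 16.3 (Graft_D40), with a day 40 ratio of 2.12 (1.61 to 2.82). Fdps had 14.2, 12.7, 17.1 and 25.4 CPM and a day 40 ratio of 2.00 (1.62 to 2.49). For both, Graft_D40 was the highest library and Graft_D19 lay between it and the ungrafted ones. Fdft1 had 7.91, 8.08, 9.72 and 13.1 CPM and Mvk had 11.4, 10.2, 12.7 and 16.5, at 1.63 and 1.62 on day 40. Nsdhl had 6.92, 5.21, 6.37 and 7.87 CPM, and its 1.51 on day 40 came with Ctrl above Graft_D19. Hmgcs1 had 22.2, 30.0, 39.1 and 39.1 CPM, called on day 19 only, at 1.76, and Cyp51 had 6.09, 6.75, 11.3 and 9.75, at 1.85 on day 19. Sqle was under the minimum in endothelium, at 1.15, 1.94, 4.25 and 7.96 CPM.

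Among the 5 regulators 1, Srebf1, was called in a graft comparison of the endothelium. Srebf1 had 25.9, 27.8, 25.2 and 18.5 CPM and was called lower on day 40, at 0.665. Srebf2 had 20.3, 26.9, 26.2 and 29.7 CPM, Scap 9.22, 13.9, 11.4 and 15.1, Insig1 35.3, 21.0, 28.0 and 26.8, and Insig2 38.4, 45.4, 42.6 and 43.3. Graft_D19 was thus below Sham_D40 for Srebf2, and Ctrl was the highest library for Insig1. The carrier Stard4 had 32.0, 40.8, 58.4 and 55.9 CPM, called on day 19 at 1.83 and not on day 40 at 1.37. Scd2 had 26.9, 41.9, 48.2 and 72.2 CPM and was called in both graft comparisons, at 1.72 and 1.80, and in Sham_D40 over Ctrl at 1.56. It was the 1 fatty acid member of 7 measured that was called higher on day 40. Abca1, with 116, 169, 154 and 158 CPM, and Abcg1, with 75.0, 100, 108 and 78.6, were lowest in Ctrl and met no call in Graft_D40 over Sham_D40.

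**Figure D4:**
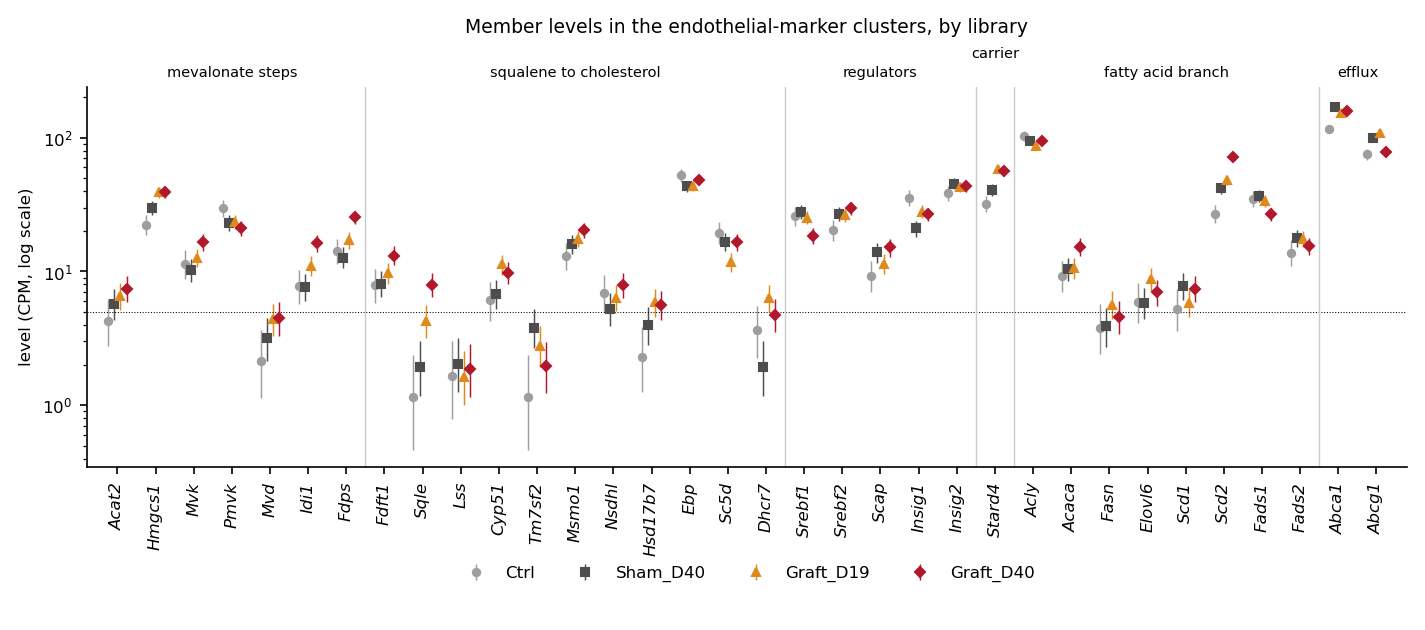
Level of the members in endothelium by library, in CPM on a log axis, with 95% exact Poisson intervals and a dotted line at 5 CPM. Graft_D40 is the highest library for Idi1, Fdps, Fdft1 and Mvk and the lowest for Srebf1.

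Against both ungrafted libraries at once, Idi1, Fdps, Fdft1 and Scd2 were called higher in endothelium of Graft_D40 (background 5.72%), and Cyp51 in Graft_D19 (2.1%). Between the ungrafted libraries Scap and Scd2 were higher in Sham_D40, Insig1 was lower and 0 sterol enzymes were called, against 21.2% and 8.61% of features. Cluster 12 held 62 Ctrl and 108 Sham_D40 cells and 481 Graft_D19 and 567 Graft_D40 cells. Without it 6 sterol members were called higher on day 40, Cyp51 being added, with 291 against 203 CPM and a background of 10.2%. Cluster by cluster the endothelial sterol sums went different ways. In the sinusoidal-marker clusters 5 and 7, the largest in Ctrl and Sham_D40 together, the sums were 201, 194, 209 and 181 CPM and 211, 190, 203 and 190 CPM, with a day 40 ratio of 0.94 (0.78 to 1.12) in cluster 5 and equal levels on day 40 in cluster 7 (interval 0.83 to 1.20). Cluster 10, with 203, 231, 267 and 238 CPM, had a day 40 ratio of 1.03 (0.85 to 1.25). The libraries did not differ beyond counting error on day 40 in these 3 clusters. In cluster 11, one of the arterial-marker clusters, the sums were 250, 273, 462 and 332 CPM, in cluster 12 they were 190, 197, 250 and 247, and in cluster 13 they were 223, 220, 288 and 386. The day 40 ratios there were 1.22, with an interval just off 1, 1.25 (1.07 to 1.48) and 1.76 (1.46 to 2.12). Cluster 13 held 19 (Ctrl), 82 (Sham_D40), 71 (Graft_D19) and 172 (Graft_D40) cells, so its Ctrl sum rests on few cells. Clusters 12 and 13 had 14 and 12 of the 14 endothelial markers called. Like clusters 5 and 10, they had none of these among their 10 leading genes, where each had 1 marker of another list, Cd34 and Vwf. The pooled values mix clusters whose sterol sums and shares of cells differed by library. Clusters 5 and 7 held 62 and 98 of the Graft_D40 cells against 304 and 463 of the Sham_D40 cells. Cycling genes summed to 24.7, 100, 259 and 216 CPM in endothelium and immediate early genes to 4949, 4368, 3571 and 1991. Their part in the result was not tested.

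The other mesenchymal classes did not show the stromal pattern. In chondrocyte-like cells (clusters 0, 1, 21, 22 and 24, 256 to 918 cells a library) the sterol branch summed to 897 CPM (Ctrl), 563 (Sham_D40), 648 (Graft_D19) and 518 (Graft_D40). Ctrl was the highest library and Graft_D40 the lowest, and cluster 0 was the largest of the class in every library. The median depth was 1515.5 UMIs a cell in Ctrl against 21008.5 to 26391.5 in the others. In Graft_D40 over Sham_D40 0 sterol members were called higher and Abca1 was the member called lower, against 1.76% and 7.13% of features. In Graft_D19 over Ctrl 1 sterol member was called higher and 6 lower, against 14.3% and 6.43%, and in Sham_D40 over Ctrl 7 were lower, against 7.89%. The fatty acid sum was 647, 661, 785 and 769 CPM.

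In osteolineage-like cells (clusters 6 and 15, 321 to 534 cells a library) the sterol sum was 337, 278, 328 and 256 CPM. Fdps, with 26.2, 17.1, 30.9 and 26.1 CPM, Fdft1, with 13.4, 6.46, 10.2 and 10.1, and Sqle, with 4.47, 3.67, 11.3 and 6.80, were called higher in Graft_D40 over Sham_D40, at 1.52, 1.57 and 1.85. Hsd17b7 was called lower, and 3.09% and 27.6% of features were called higher and lower. Ctrl was level with or above Graft_D40 for Fdps and Fdft1. In fibroblast-like cells (clusters 18 and 20, 113 to 248 cells) the sum was 584, 311, 507 and 336, and Acat2 and Abca1 were called higher on day 40, against 5.07%. Ctrl was again the highest library.

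**Figure D5:**
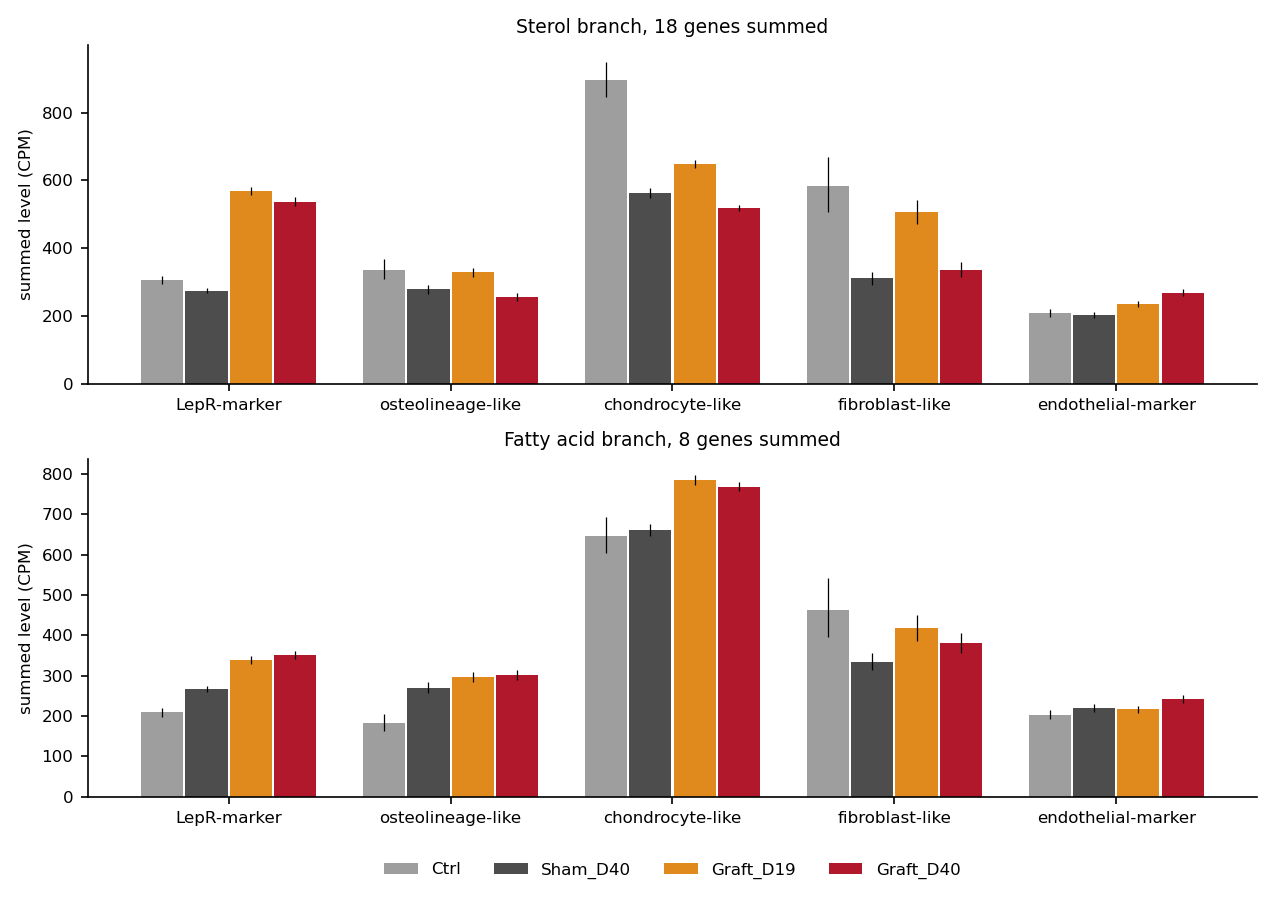
Summed CPM of the sterol branch and the fatty acid branch in 5 classes and 4 libraries, with 95% exact Poisson intervals. Both grafted libraries exceed both ungrafted ones in the sterol sum of LepR-marker stroma and of the pooled endothelium, whereas Ctrl is the highest library in chondrocyte-like, osteolineage-like and fibroblast-like cells.

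Pooled over all mesenchymal clusters, with 2456 to 3288 cells a library, 7 sterol members were called higher and 0 lower in Graft_D40 over Sham_D40, where 5.08% and 10.9% of 10817 features were, and the sums were 474 against 357 CPM (1.33). On day 19, 9 were higher and 0 lower, against 18.9% and 13.2%, at 561 against 394 CPM (1.42). Insig2 was also called lower there. The fatty acid branch had 3 members higher on day 40 and 7 on day 19, where it summed to 539 against 268 CPM. The pool mixes classes whose shares differed by library: chondrocyte-like cells made up 256 of 2456 cells in Ctrl and 918 of 2936 in Graft_D40.

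A wider list of 22 other genes of sterol synthesis, uptake and storage, and one of 30 other fatty acid genes, gave the following counts in LepR-marker stroma. Of the first, 21 were measured, 4 were called higher and 1, Mylip, lower in Graft_D40 over Sham_D40, where 7.68% and 4.83% of features were, and the median log2 ratio was 0.16 against 0.07 over all features. On day 19, 11 were called higher, against 29.9% of features. Of the second list, 26 were measured, Acsl3 was called higher and Fabp4, Fabp5 and Lpl lower on day 40, and the median was -0.03. On day 19, 8 were higher and 3 lower, near the shares over all features (29.9% and 8.01%). Acsl3, an acyl-CoA synthetase, had 15.4, 14.9, 26.7 and 27.9 CPM. Fabp4, a fatty acid carrier of adipocytes, had 337, 183, 115 and 90.4 CPM, and Lpl, the lipoprotein lipase that counts among the LepR markers, had 2941, 5374, 3590 and 1476. Both were lowest in Graft_D40, and Lpl was highest in Sham_D40.

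Read assignment limits some members. Exons of Fdps, Tm7sf2, Srebf1 and Scd2 overlap another annotated gene on the same strand in GENCODE vM21, and exons of Hmgcs1, Idi1, Fdft1, Lss, Cyp51, Srebf1, Scap and Elovl6 overlap one on the opposite strand. The same-strand genes are Gm43738 for Fdps, Vps51 for Tm7sf2, Mir6922 for Srebf1 and Mir5114 for Scd2. Whether they were among the counted features was not checked, so how far these members' values are uncertain is not known.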

How the data were processed

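The 4 deposited matrices, 1 per group, held UMI counts per gene and barcode that the authors made with Cell Ranger, version 5.0.0 per the file headers and 3.1.0 with mm10 per the submitters' processing notes. The deposited counts were not normalized. Antibody features of Sham_D40 and Graft_D40 were left out. Cells needed 1000 UMIs, 500 genes and at most 10% mitochondrial UMIs. A scanpy 1.11.5 Scrublet call at an assumed rate of 6% removed 77, 43, 89 and 53 doublets (Ctrl, Sham_D40, Graft_D19, Graft_D40). Leiden clustering (2000 variable genes, 30 components, resolution 1) gave 26 clusters, gated into classes by marker lists. The marker Ahsp was not used here. Counts were summed per class and library, scaled to CPM, and log2 ratios used a pseudocount of 1 CPM. Ratios have exact conditional binomial intervals, levels exact Poisson intervals and shares of cells Clopper-Pearson intervals, all at 95%. The code was tested on simulated counts. With 1 library per group no test was made.

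The members, lists and classes were chosen with earlier results of these data known. Members called in either main comparison in LepR-marker stroma are given in all libraries, others by values or counts, and genes off the list only from the wider lists, by their smaller ratio over both ungrafted libraries. Alternatives varied the scaling, minimum, fold, pseudocount, cell filters, doublets, clusters and comparator. Coordinates are those of GENCODE vM21.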

Additional observations from a re-analysis of the deposited data

Results flagged for a closer look

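The sterol branch of the haematopoietic-like cluster 23, which lies outside every comparison above, summed to 708 CPM in Graft_D40 against 387, 345 and 386 in Ctrl, Sham_D40 and Graft_D19, the single library lying far from the rest. It rests on 33 cells and 139 sterol UMIs, of which the 10 richest cells held 94.2%.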

How the results depend on the processing

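The 12 counts of members called higher (2 branches, 2 graft comparisons, 3 cell pools) gave 162 values under the alternatives, of which 122 stayed within 1.5 times the main count and 40 did not. No paired analysis was possible because each group had 1 library, and for that reason no replicate could be left out. Where a cause is not evident from the setting, it was not tested. The counts below have no share of all features called at the same setting beside them. They describe how the counts moved, and not whether the members differed from other features.

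In LepR-marker stroma a 20 CPM minimum, which tests fewer genes, gave 4 (day 40) and 5 (day 19) sterol and 2 and 3 fatty acid members, and a fold of 2 gave 1 and 3 fatty acid members. The day 19 fatty acid count of 5 became 3 with median-of-ratios size factors, 3 against Sham_D40, 1 without the cluster of most different share, and, in settings chosen after seeing the data, 3 without cluster 8 and 0 in clusters 3, 4 and 14. In the mesenchymal pool the 20 CPM minimum gave 4 and 5 sterol members, a fold of 2 gave 1 and 5 sterol and 0 and 3 fatty acid members, and median-of-ratios scaling gave 5 fatty acid members on day 40. The other ungrafted library gave 7 and 3 fatty acid members there, and leaving out the cluster of most different share gave 4 sterol members on day 19 and 5 and 3 fatty acid members. In endothelium the 20 CPM minimum gave 0 and 1 sterol members, a fold of 2 gave 2 and 0 sterol and 0 and 0 fatty acid members, and mean CPM per cell gave 2 and 1 sterol and 2 and 2 fatty acid members. The endothelial sterol count on day 19 was 7 with no minimum, 4 with cells of at least 2000 UMIs and at most 5% mitochondrial, 4 with doublets kept and 1 against Sham_D40. The endothelial fatty acid count was 2 on day 40 against Ctrl or without the 10 richest cells, and 2 on day 19 without the cluster of most different share.

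Signs turned in 3 named values. Scap in LepR-marker stroma on day 19 was -0.027 (log2) against Sham_D40, Insig1 in the mesenchymal pool on day 40 was -0.17 against Ctrl, and Fasn in LepR-marker stroma on day 19 was -0.36 in clusters 3, 4 and 14. A pseudocount of 5 CPM lowered the sterol medians of LepR-marker stroma to 0.69 and 0.98.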
